A study of Rattus norvegicus with 12 samples.

Results

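Genes that carry long-chain fatty acids and coat lipid droplets were followed across 4 mitochondrial preparations of rat skeletal muscle. They were taken by name from the deposited count table, as Fabp3, Fabp4, Cd36, Lpl, Plin2, Plin4, Plin5 and Cidec. Of these 8 genes, 7 had a row among the 30560 genes of the table and all 7 had enough counts to be tested, while Cd36, the membrane fatty acid translocase, is not analysed here. The starting material was hindlimb muscle, named gastrocnemius in the study's design, of 1 wild-type male Wistar Kyoto rat aged 14 weeks, and 12 libraries in 4 groups of 3 were made from aliquots of its pooled homogenate. The IP_RNase group held mitochondria captured on antibody-coated magnetic beads, the IP_RNase_ProK group held captured mitochondria also treated with proteinase K, which digests exposed protein, and the mitoplast_RNase group held mitoplasts, which lack the outer membrane, made from captured mitochondria. For crude_RNase the organelles were collected by differential centrifugation alone. All 4 groups, crude_RNase included, had received RNase A, which degrades accessible RNA. The comparisons ask how much of each messenger RNA of this lipid-handling set stays with the organelle as the preparation is purified.

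Muscle takes up fatty acids that lipoprotein lipase releases from circulating triglyceride at the capillary wall, and small cytosolic binding proteins then carry them to membranes and enzymes. What is not oxidised in mitochondria is stored as triglyceride in lipid droplets, whose surface is covered by perilipins and, in fat cells, by CIDE proteins. Fabp3 is the binding protein of heart and muscle fibres, whereas Fabp4 is that of fat cells and capillary endothelium. Plin5 is known for tethering droplets to mitochondria in oxidative muscle, Plin2 is the widely expressed perilipin, Plin4 coats small droplets in muscle and fat, and Cidec enlarges droplets in white fat. All of them are encoded in the nucleus and translated in the cytosol, and none of their messenger RNAs is made inside mitochondria.

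Library totals ran from 3325430 to 4563254 counts in the 9 bead-captured libraries and from 6583452 to 7123045 counts in the 3 crude_RNase libraries. The 13 mitochondrially encoded messenger RNAs took 1.49% to 5.59% of counts in the captured libraries and 22.9% to 28.8% in crude_RNase. At least 1 count fell on 98.8% to 99.3% of the 1117 olfactory receptor genes, which muscle is not known to transcribe, and the median gene among them had 37 to 49 counts per captured library and 30 to 34 per crude_RNase library. Against that, the 7 lipid genes had between 56 and 397 counts per library, not corrected for gene length, so the low members were read on top of a level that these receptor genes also showed. Counting error was 5.50% to 12.7% of a group's mean count. Libraries were made from 40 ng of RNA in the captured groups and 6.3 ng in crude_RNase, so RNA input and preparation cannot be told apart. All groups shared 1 pooled homogenate and thus the same starting cells, and the cell type that an RNA came from was not measured. All libraries go back to 1 animal, so the errors and p-values given here cover differences between aliquots, which may be technical, and not between animals.

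Relative to the median gene, the fatty acid carriers Fabp3 and Fabp4 showed the largest differences among the 7 genes, at 0.425 to 0.496 of their crude_RNase level in the captured groups. Lpl and Plin4 were lower in all 3 captured groups and Plin2 was lower in IP_RNase, while Plin5 passed the test nowhere and Cidec was higher in IP_RNase_ProK. In IP_RNase against crude_RNase, 5 of the 7 tested genes were lower and 0 higher by edgeR's quasi-likelihood test at an adjusted p under 0.05, where 5.09% of all 26483 tested genes were lower and 1.26% higher. In IP_RNase_ProK against crude_RNase, 4 were lower and 1 higher, beside 5.04% and 1.45% of all genes. In mitoplast_RNase against crude_RNase, 4 were lower and 0 higher, beside 4.54% and 0.997%. The median log2 fold change of the 7 was -0.51 in IP_RNase, -0.62 in IP_RNase_ProK and -0.50 in mitoplast_RNase, where the medians of all genes were 0.0069, 0.0033 and 0.0046. The 3 comparisons share the crude_RNase libraries and are not independent of each other.

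**Figure D1:**
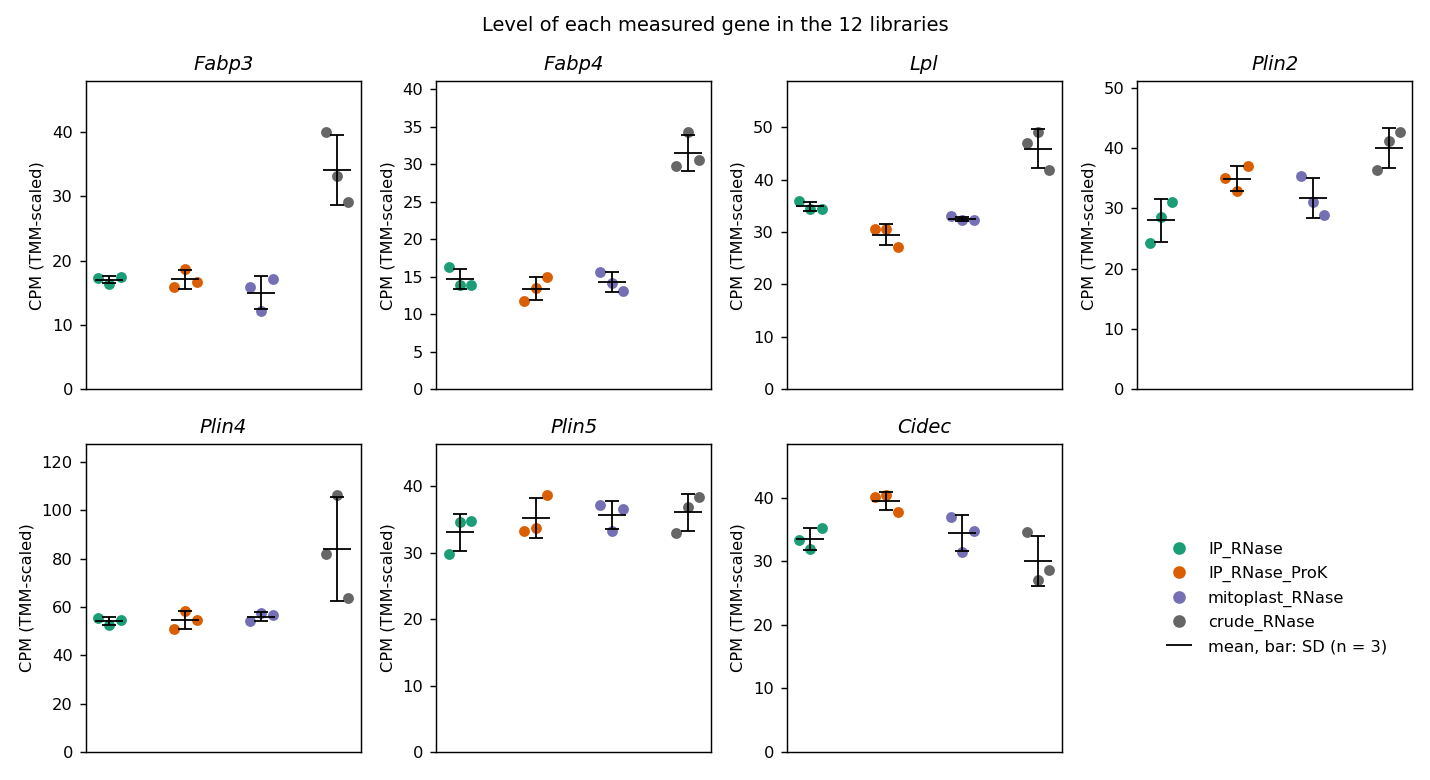
Level of each of the 7 measured genes in the 12 libraries, in CPM scaled by TMM (y axis, from 0), with IP_RNase, IP_RNase_ProK, mitoplast_RNase and crude_RNase from left to right; points are libraries, horizontal bars are group means and error bars are SD (n = 3). All 9 captured libraries sit below the 3 crude_RNase libraries for Fabp3, Fabp4, Lpl and Plin4, whereas the groups of Plin5 overlap.

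Fabp3 (ENSRNOG00000012879) had 17.3, 16.4 and 17.4 CPM (counts scaled to an effective library size of 1000000 by TMM, a trimmed mean of gene ratios) in IP_RNase, 15.9, 18.6 and 16.7 CPM in IP_RNase_ProK, 15.9, 12.2 and 17.1 CPM in mitoplast_RNase, and 39.9, 33.2 and 29.2 CPM in crude_RNase. Every captured library was below every crude_RNase library. The raw counts were 62 to 89 against 104 to 178, but the crude_RNase libraries also had the larger totals. The fold was 0.496 in IP_RNase (95% interval 0.408 to 0.603), 0.495 in IP_RNase_ProK (0.410 to 0.599) and 0.436 in mitoplast_RNase (0.359 to 0.530), each relative to crude_RNase. On the log2 scale these were -1.01 ± 0.140, -1.01 ± 0.137 and -1.20 ± 0.140 (SE), with edgeR adjusted p of 1.73e-07, 7.60e-08 and 1.79e-09. The 3 crude_RNase libraries spread more widely for Fabp3 (SD 5.44 CPM) than the 3 IP_RNase libraries (SD 0.529 CPM). The highest was crude_RNase replicate 1, which also stood apart in its TMM factor (0.679, against 0.525 and 0.528 in the other crude_RNase libraries). Without it the log2 fold change of Fabp3 was -0.87 in IP_RNase, -0.87 in IP_RNase_ProK and -1.06 in mitoplast_RNase, and the calls held.

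Fabp4 (ENSRNOG00000010805) had 16.3, 13.9 and 14.0 CPM in IP_RNase, 11.8, 13.5 and 14.96 CPM in IP_RNase_ProK, 15.7, 14.1 and 13.1 CPM in mitoplast_RNase, and 29.8, 34.3 and 30.6 CPM in crude_RNase. As with Fabp3, no captured library reached the lowest crude_RNase library. The raw counts were 56 to 75 against 109 to 133, again with larger totals in crude_RNase. Its fold was 0.469 in IP_RNase (95% interval 0.385 to 0.571), 0.425 in IP_RNase_ProK (0.349 to 0.516) and 0.455 in mitoplast_RNase (0.375 to 0.553). The log2 fold changes were -1.09 ± 0.142, -1.24 ± 0.140 and -1.13 ± 0.139 (SE), with edgeR adjusted p of 2.96e-08, 6.62e-10 and 6.17e-09. The folds of Fabp3 and Fabp4, carriers known from different cell types, had intervals that overlapped in all 3 comparisons. Captured libraries had 56 to 75 counts of Fabp4 and 62 to 89 of Fabp3, beside 70 to 97 for the median gene. The olfactory receptor median was 37 to 49 counts there. Whether this low level made the folds alike was not tested, so the overlap does not show that the carriers behaved alike.

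Lpl (ENSRNOG00000012181), the lipase that frees fatty acids from lipoprotein triglyceride, had 35.9, 34.3 and 34.4 CPM in IP_RNase, 30.6, 30.6 and 27.1 CPM in IP_RNase_ProK, 33.0, 32.2 and 32.2 CPM in mitoplast_RNase, and 46.9, 49.0 and 41.8 CPM in crude_RNase. The captured libraries stayed within 27.1 to 35.9 CPM and did not overlap with crude_RNase. The log2 fold change was -0.40 ± 0.102 in IP_RNase, -0.64 ± 0.103 in IP_RNase_ProK and -0.50 ± 0.101 in mitoplast_RNase (SE), with edgeR adjusted p of 0.00752, 4.46e-06 and 0.000350. In linear terms the level was 0.759, 0.642 and 0.707 of that in crude_RNase, a smaller difference than for either binding protein.

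Among the perilipins, Plin4 (ENSRNOG00000047046) had 55.5, 52.5 and 54.5 CPM in IP_RNase, 51.0, 58.4 and 54.7 CPM in IP_RNase_ProK, 54.1, 57.6 and 56.5 CPM in mitoplast_RNase, and 82.1, 106.3 and 63.6 CPM in crude_RNase. The captured libraries lay close together and the crude_RNase libraries far apart, with crude_RNase replicate 2 highest and replicate 3 nearest to the captured groups. Plin4 was lower by -0.63 ± 0.105 in IP_RNase, -0.62 ± 0.102 in IP_RNase_ProK and -0.58 ± 0.102 in mitoplast_RNase on the log2 scale (SE), with edgeR adjusted p of 8.30e-06, 6.92e-06 and 2.69e-05. The size rested in part on single crude_RNase libraries: with each of the 12 left out in turn, the IP_RNase value ran from -0.79 to -0.44, and the call held each time. The edgeR SE uses 1 spread shared by the 4 groups and moderated over all genes. It is therefore smaller than the crude_RNase SD of 21.4 CPM around 84.0 CPM would give.

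Plin2 (ENSRNOG00000007060) had 24.3, 28.6 and 31.1 CPM in IP_RNase, 35.0, 32.8 and 37.0 CPM in IP_RNase_ProK, 35.3, 31.0 and 28.9 CPM in mitoplast_RNase, and 36.3, 41.2 and 42.6 CPM in crude_RNase. IP_RNase and mitoplast_RNase stayed below all crude_RNase libraries, whereas the highest IP_RNase_ProK library passed the lowest crude_RNase library. Its log2 fold change was -0.51 ± 0.116 in IP_RNase (SE, edgeR adjusted p = 0.00171), and -0.19 ± 0.109 in IP_RNase_ProK and -0.33 ± 0.111 in mitoplast_RNase (adjusted p = 0.372 and 0.0717). The mitoplast_RNase value crossed the threshold without mitoplast_RNase replicate 1 (adjusted p = 0.0475) and without crude_RNase replicate 1 (adjusted p = 0.0219). Scaled on olfactory receptor genes it was -0.44 and was called too (adjusted p = 0.0214).

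Plin5 (ENSRNOG00000047860), the perilipin at the contact of droplet and mitochondrion, had 29.8, 34.6 and 34.8 CPM in IP_RNase, 33.3, 33.7 and 38.7 CPM in IP_RNase_ProK, 37.2, 33.2 and 36.6 CPM in mitoplast_RNase, and 33.0, 36.9 and 38.4 CPM in crude_RNase. All 4 groups overlapped. The log2 fold changes of -0.12, -0.03 and -0.01 had 95% intervals of -0.34 to 0.10, -0.25 to 0.18 and -0.23 to 0.20 for IP_RNase, IP_RNase_ProK and mitoplast_RNase against crude_RNase, with edgeR adjusted p of 0.636, 0.920 and 0.971. These intervals leave out a difference of the size measured for Fabp3 or Fabp4, and they do not show that Plin5 was equal between preparations.

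Cidec (ENSRNOG00000009153) ran the other way. It had 33.3, 31.9 and 35.3 CPM in IP_RNase, 40.1, 40.4 and 37.8 CPM in IP_RNase_ProK, 37.0, 31.4 and 34.8 CPM in mitoplast_RNase, and 34.5, 27.0 and 28.6 CPM in crude_RNase. Only the IP_RNase_ProK libraries were all above crude_RNase, by 0.38 ± 0.109 on the log2 scale (SE, edgeR adjusted p = 0.0201), while the values for IP_RNase and mitoplast_RNase were 0.15 and 0.18 (adjusted p = 0.554 and 0.434). The IP_RNase_ProK call was lost with DESeq2 (adjusted p = 0.0763), with scaling on olfactory receptor genes (0.26, adjusted p = 0.259) and without IP_RNase_ProK replicate 1 or 2 or crude_RNase replicate 2 or 3 (adjusted p = 0.0890, 0.0826, 0.128 and 0.0896). Scaled on olfactory receptor genes, the IP_RNase value of Cidec was -0.07, below 0.

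**Figure D2:**
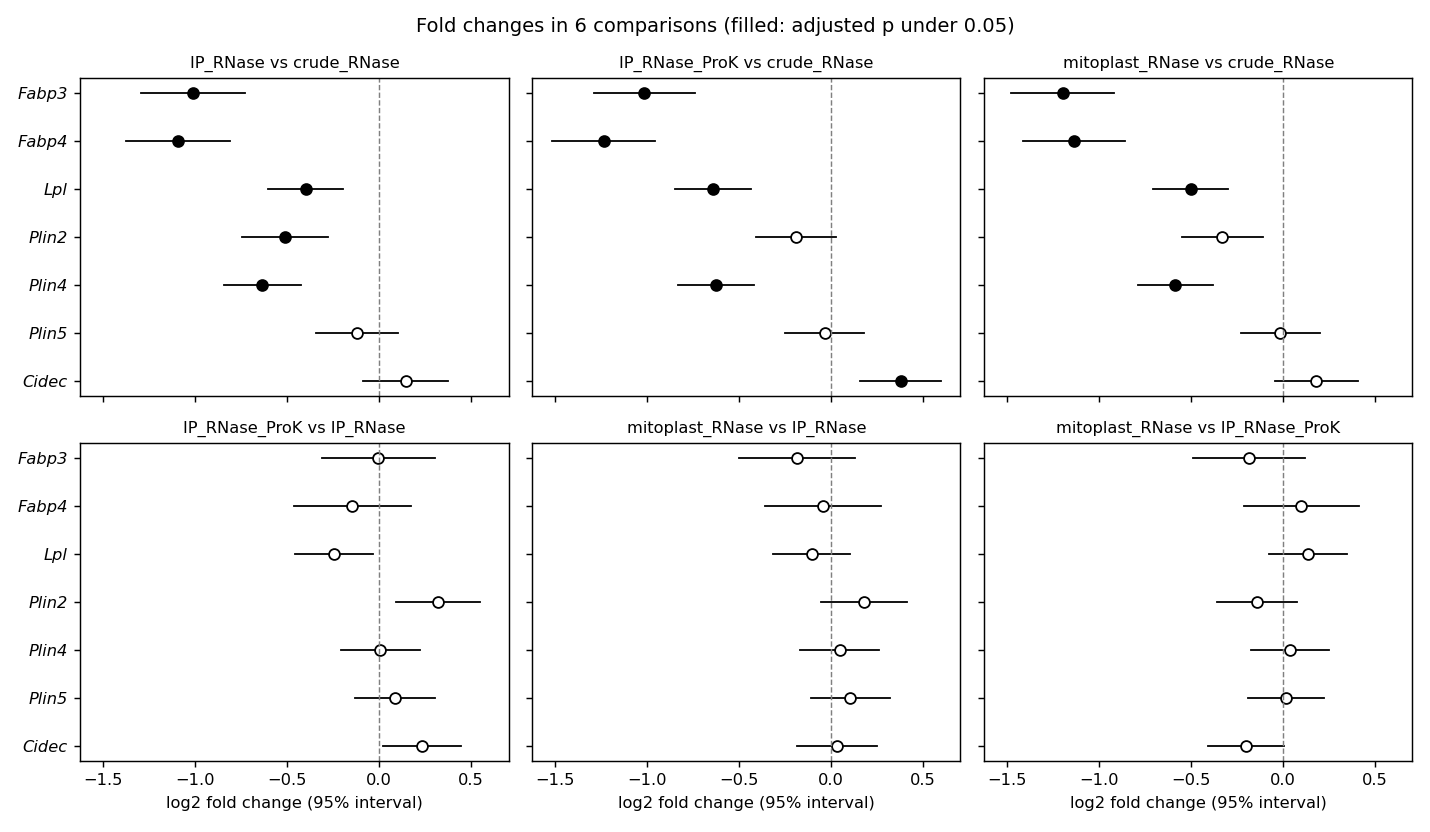
Log2 fold change (x axis, points) with its 95% interval (lines) of the 7 genes (rows) in 6 comparisons by edgeR with TMM scaling; filled points have an adjusted p under 0.05, and the dashed line marks equal levels. In the upper panels Fabp3 and Fabp4 lie between -1.24 and -1.01 relative to crude_RNase and Plin5 stays near 0, and in the lower panels, which compare captured groups, 0 of 7 points are filled.

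Proteinase K and removal of the outer membrane gave no call for any of the 7 genes. In IP_RNase_ProK against IP_RNase, edgeR called 0 of 7, beside 0.11% of all genes lower and 0.0302% higher. Of all 26483 genes, 2346 had an unadjusted edgeR p under 0.05, and so did 3 of the 7. These were Plin2 at 35.0 ± 2.06 CPM in IP_RNase_ProK and 28.0 ± 3.49 CPM in IP_RNase (SD, n = 3 each), with a log2 fold change of 0.32 and an edgeR adjusted p of 0.359, Cidec at 39.4 ± 1.40 and 33.5 ± 1.71 CPM (0.23, adjusted p = 0.515), and Lpl at 29.4 ± 2.002 and 34.9 ± 0.901 CPM (-0.24, adjusted p = 0.499). The libraries of the 2 groups did not overlap for these 3 genes. In mitoplast_RNase against IP_RNase 0 of 7 were called, beside 0.132% lower and 0.0227% higher. There 0 of the 7 had an unadjusted p under 0.05, beside 2365 of all genes. In mitoplast_RNase against IP_RNase_ProK 0 of 7 were called, beside 0 of all genes in either direction, and 0 of the 7 had an unadjusted p under 0.05 although 741 genes in the table did. DESeq2 made 0 calls among the 7 here, but against IP_RNase it gave an adjusted p for Plin4 alone, so 12 of those fold changes could not be called by it. For Fabp3 the 95% intervals of the log2 difference were -0.31 to 0.30 in IP_RNase_ProK against IP_RNase and -0.50 to 0.13 in mitoplast_RNase against IP_RNase, and for Fabp4 they were -0.46 to 0.18 and -0.36 to 0.27, so a difference of the size seen against crude_RNase lay outside them.

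The direction of these differences depends on what the libraries are scaled to. Scaling to library totals moved the median log2 fold change of all genes to 1.03 in IP_RNase, 1.09 in IP_RNase_ProK and 1.08 in mitoplast_RNase against crude_RNase, scaling to olfactory receptor genes moved it to -0.21, -0.12 and -0.11, and scaling to the 13 mitochondrial messenger RNAs moved it to 3.81, 4.95 and 4.93. Under library totals Lpl, Plin2, Plin4, Plin5 and Cidec were called higher in each captured group, and Fabp3 (0.01, 0.06 and -0.13) and Fabp4 (-0.06, -0.15 and -0.06) were not called. Under mitochondrial messenger RNAs all 7 genes were called higher. Measured from the median gene, the values hardly moved: over the 4 scalings Fabp3 lay -1.05 to -1.02 from it in IP_RNase, -1.03 to -1.02 in IP_RNase_ProK and -1.21 to -1.20 in mitoplast_RNase, and Fabp4 lay at -1.10, at -1.24 to -1.23 and at -1.14. Plin4 lay -0.64 to -0.61 from the median gene in IP_RNase and Plin5 -0.13 to -0.10. Of all genes called in the 3 comparisons, 19.9%, 22.4% and 18.0% were higher with TMM, against 99.3% in each with library totals, 1.28%, 3.83% and 2.93% with olfactory receptor genes, and 99.9%, 99.95% and 99.97% with mitochondrial messenger RNAs.

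**Figure D3:**
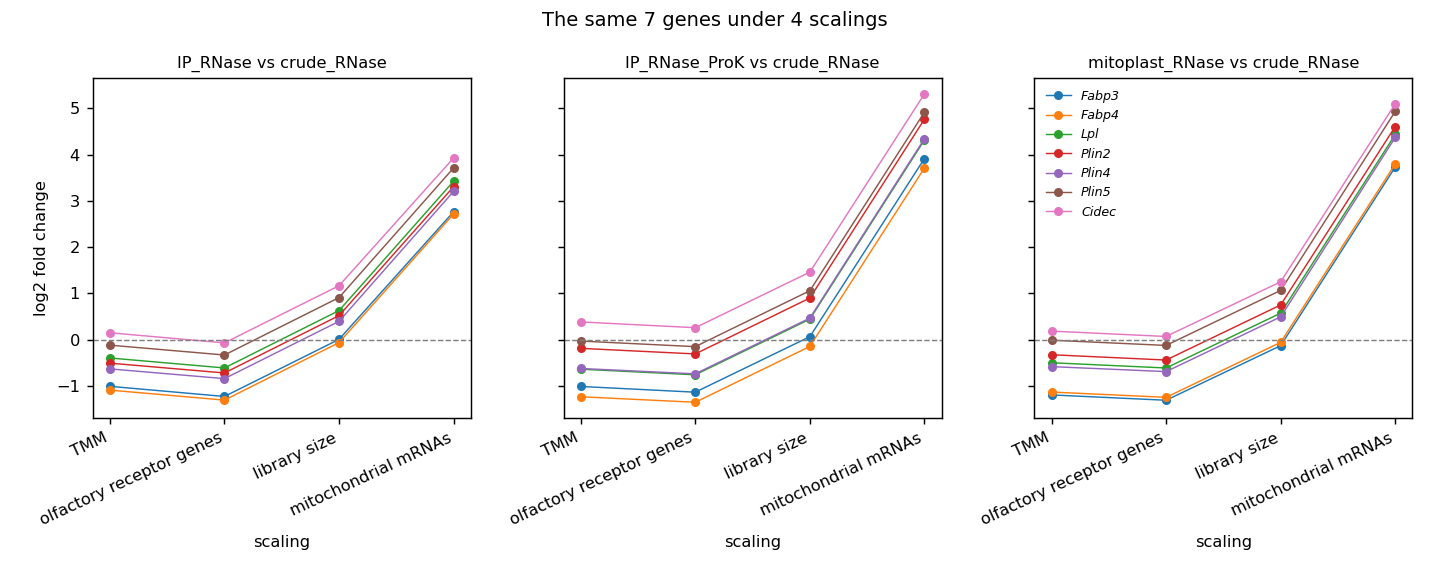
Log2 fold change (y axis) of the 7 genes (colours) in IP_RNase, IP_RNase_ProK and mitoplast_RNase (panels) against crude_RNase under 4 scalings (x axis; TMM, olfactory receptor genes, library totals and mitochondrial messenger RNAs). The lines shift together and stay nearly parallel, so that the sign depends on the scaling while Fabp3 and Fabp4 remain the lowest of the 7 under each of the 4.

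Ratios between genes counted in the same library do not depend on scaling. The log2 ratio of Fabp3 to Plin5 was -0.95 ± 0.146 in IP_RNase, -1.04 ± 0.179 in IP_RNase_ProK, -1.25 ± 0.175 in mitoplast_RNase and -0.09 ± 0.340 in crude_RNase (SD, n = 3 each). That of Fabp4 to Plin5 was -1.16 ± 0.255, -1.39 ± 0.0910, -1.31 ± 0.136 and -0.19 ± 0.118 in the same order. Both ratios were chosen after their values were seen and were given no test, and in both the captured libraries lay below the crude_RNase libraries without overlap. The ratio of Plin2 to Plin5 averaged -0.14 ± 0.137 in the 9 captured and 0.15 ± 0.00901 in the 3 crude_RNase libraries (SD), a difference of -0.29 with a two-sided exact permutation p of 0.00909, the smallest this design allows, and 0.0273 adjusted over 3 ratios. It was lower in 9 of 9 captured libraries than in any crude_RNase library. The crude_RNase SD was far below what counting error would give (8.01% of the mean count for Plin2 and 8.43% for Plin5). The close agreement of those 3 libraries therefore cannot be relied on. The call was lost without crude_RNase replicate 1, 2 or 3 (exact permutation test, adjusted p = 0.109, 0.109 and 0.0545). The libraries still did not overlap there, and with fewer of them the exact p could not be smaller, so this loss does not test the result. The difference was -0.39 in IP_RNase, -0.16 in IP_RNase_ProK and -0.32 in mitoplast_RNase taken alone. The permutation test takes the 9 libraries of these 3 preparations as 1 group. Their ratios were not alike, at -0.30 to -0.16 in IP_RNase and -0.07 to 0.08 in IP_RNase_ProK. Plin4 to Plin5 was 0.67 ± 0.130 in captured and 1.19 ± 0.412 in crude_RNase libraries, a difference of -0.52 (exact p = 0.0364, adjusted p = 0.0545), and here crude_RNase replicate 3 fell within the captured range. Fabp3 to Fabp4 was 0.21 ± 0.219 and 0.10 ± 0.275, a difference of 0.10 with an exact p of 0.5, so a change in the balance of the 2 carriers was not detectable in these libraries.

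**Figure D4:**
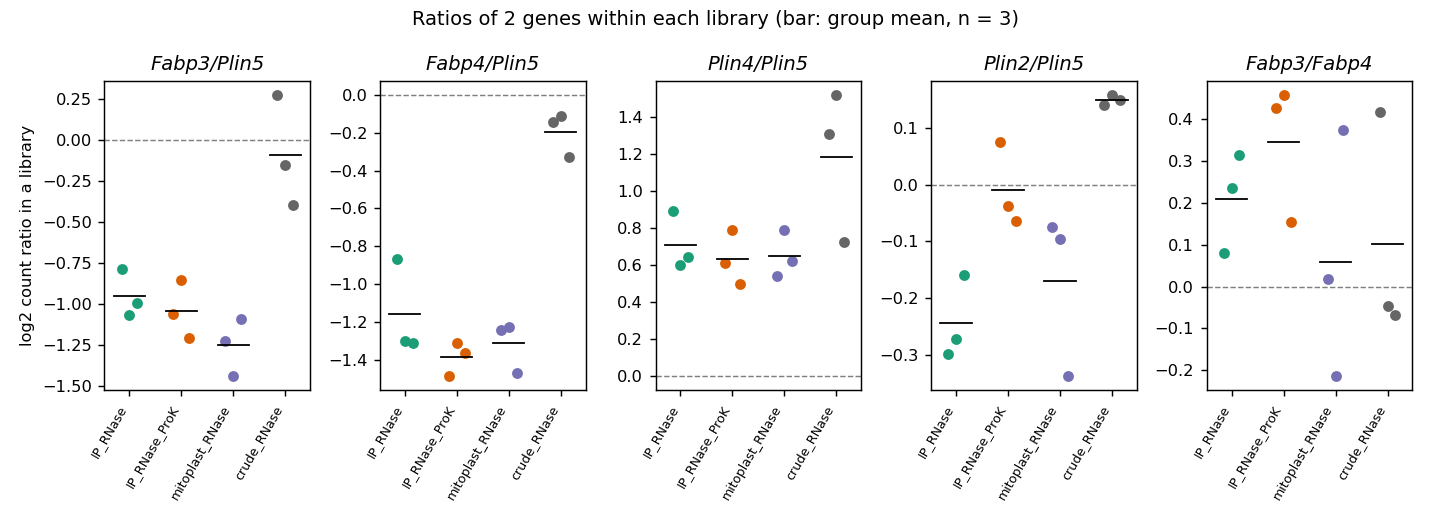
Log2 ratio of counts of 2 genes within each library (y axis) for IP_RNase, IP_RNase_ProK, mitoplast_RNase and crude_RNase from left to right; points are libraries, bars are group means (n = 3) and dashed lines mark equal counts. Fabp3/Plin5, Fabp4/Plin5 and Plin2/Plin5 are lower in all 9 captured libraries than in the 3 crude_RNase libraries, and Fabp3/Fabp4 overlaps.

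The wider pathway was read from 6 lists of 85 genes, of which 81 were tested. Relative to crude_RNase 5 of 81 (6.17%) were lower in each captured group, and 0, 1 and 1 were higher in IP_RNase, IP_RNase_ProK and mitoplast_RNase, close to the shares of all genes. The list medians together were -0.09, -0.07 and -0.06, and 0 were called among the captured groups. In fatty acid uptake and activation 1 of 21 was lower in each captured group. This was Got2, the mitochondrial aspartate aminotransferase also described as a fatty acid binding protein of the plasma membrane, at 26.3 ± 1.56 CPM in IP_RNase and 40.4 ± 2.18 CPM in crude_RNase (SD, n = 3 each) and with log2 fold changes of -0.62, -0.56 and -0.59 in the 3 captured groups (edgeR adjusted p = 6.30e-05, 0.000186 and 8.30e-05). Fabp1, the liver binding protein, had 7.86 ± 2.44 CPM in IP_RNase and 11.1 ± 1.39 CPM in crude_RNase and was not called (log2 fold change -0.51, edgeR adjusted p = 0.226). Scaled on olfactory receptor genes it was called lower in IP_RNase (adjusted p = 0.0315). Fabp4, at 14.7 CPM in IP_RNase, had a mean of 62.3 counts there. Fabp1 lay below that, toward the olfactory receptor median of 37 to 49 counts per captured library, so its fold was read near that level.

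In lipolysis 1 of 9 was lower in each captured group. It was Pnpla2, adipose triglyceride lipase, which takes the first fatty acid from stored triglyceride, at 33.2 ± 2.99 CPM in IP_RNase, 36.0 ± 4.90 CPM in IP_RNase_ProK, 32.4 ± 0.850 CPM in mitoplast_RNase and 55.2 ± 4.20 CPM in crude_RNase (SD, n = 3 each). The captured and crude_RNase libraries of Pnpla2 did not overlap, and the log2 fold changes were -0.73, -0.61 and -0.76 (edgeR adjusted p = 3.59e-07, 7.07e-06 and 7.58e-08). Ddhd2, a triglyceride and phospholipid hydrolase, was not called (0.22 in IP_RNase, adjusted p = 0.232). Among 14 genes of droplet coat and formation, Fitm1, an endoplasmic reticulum protein of muscle that helps droplets form, was lower by -0.66, -0.54 and -0.67 (adjusted p = 0.00653, 0.0261 and 0.00453), a call lost without crude_RNase replicate 2 in all 3 (adjusted p = 0.0750, 0.220 and 0.0838). Its IP_RNase_ProK call was also lost without any of the IP_RNase_ProK libraries (adjusted p = 0.0627, 0.0605 and 0.118), with DESeq2 (0.0963) and in a fit of these groups alone (0.0551). G0s2, the inhibitor of Pnpla2, had log2 fold changes of -0.44, -0.36 and -0.47 and passed in none with TMM (adjusted p = 0.166, 0.269 and 0.134). Scaled on olfactory receptor genes, which lowers the median of all genes, G0s2 was called lower in IP_RNase and mitoplast_RNase (edgeR adjusted p = 0.0131 and 0.0468). In IP_RNase Fitm1 was at 12.4 CPM and G0s2 at 10.7 CPM, both below Fabp4 (14.7 CPM) and so toward the level of olfactory receptor genes. The gene called higher was Cideb, a relative of Cidec known from liver, named here after its value was seen, at 0.46 in IP_RNase_ProK and 0.50 in mitoplast_RNase (adjusted p = 0.0344 and 0.0198).

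In triglyceride synthesis 0, 1 and 0 of 18 were lower in IP_RNase, IP_RNase_ProK and mitoplast_RNase. Lpin2, a phosphatidate phosphatase, and Agpat1, an acyltransferase, were at 0.26 and -0.29 in IP_RNase and were not called (edgeR adjusted p = 0.0715 and 0.0999). Without crude_RNase replicate 2 both were called there (0.0247 and 0.0410). Scaled on olfactory receptor genes, Agpat1 was called lower in IP_RNase (-0.51, adjusted p = 0.00635). The gene called in IP_RNase_ProK was the desaturase Scd2 (-0.31, adjusted p = 0.0221), named after its value was seen. Of 7 genes for fatty acid entry into mitochondria, 0, 0 and 1 were lower. Slc25a20, the carnitine-acylcarnitine carrier, was at -0.36, -0.35 and -0.30 (adjusted p = 0.0768, 0.0730 and 0.170), and Cpt1b, the muscle carnitine palmitoyltransferase of the outer membrane, at -0.26, -0.19 and -0.20 (adjusted p = 0.0970, 0.278 and 0.250). Scaled on olfactory receptor genes, Slc25a20 was called lower in all 3 captured groups (edgeR adjusted p = 0.00202, 0.0148 and 0.0435), and Cpt1b in IP_RNase (0.00586). Cpt1b was also called in IP_RNase without IP_RNase replicate 3 (0.0232) or crude_RNase replicate 2 (0.0263). Slc25a20 was called in IP_RNase_ProK without crude_RNase replicate 1 (0.0476). With TMM and all libraries, the gene called in mitoplast_RNase was Mlycd, malonyl-CoA decarboxylase (-0.42, adjusted p = 0.0262), also named after its value was seen.

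Of 12 transcription factors and coactivators of lipid genes, 2, 1 and 1 were lower. Cebpb, a factor of early fat cell differentiation, had 20.4 ± 4.71 CPM in IP_RNase, 22.8 ± 1.48 CPM in IP_RNase_ProK, 25.5 ± 2.05 CPM in mitoplast_RNase and 40.0 ± 5.65 CPM in crude_RNase (SD, n = 3 each), with log2 fold changes of -0.98, -0.81 and -0.66 (edgeR adjusted p = 1.24e-07, 2.64e-06 and 0.000130). Rxra, the partner of the PPAR receptors, was called in IP_RNase (-0.33, adjusted p = 0.0338). The Rxra call was lost with DESeq2 (adjusted p = 0.127), in a fit of these groups alone (0.0607) and without any IP_RNase library (0.152, 0.0640 and 0.0646) or crude_RNase replicate 1 (0.208). In mitoplast_RNase Rxra was called with olfactory receptor scaling (0.0366) and without crude_RNase replicate 3 (0.0211). In IP_RNase_ProK it was called without IP_RNase_ProK replicate 2 (0.0153) or crude_RNase replicate 3 (0.0399). With library totals in place of TMM, Got2, Pnpla2 and Fitm1 were at 0.40, 0.29 and 0.36 in IP_RNase against crude_RNase and Cebpb was at 0.04, so their sign depended on the scaling. Measured from the median gene over the 4 scalings, they lay at -0.64 to -0.62 (Got2), -0.74 to -0.73 (Pnpla2), -0.69 to -0.67 (Fitm1) and -1.03 to -0.98 (Cebpb).

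Cell type markers moved unevenly beside these genes. All 12 tested myofibre markers were lower in each captured group, with median log2 fold changes of -3.32, -3.37 and -3.12 and a summed level of 697 to 801 CPM in IP_RNase, 672 to 696 CPM in IP_RNase_ProK, 704 to 868 CPM in mitoplast_RNase and 6106 to 7727 CPM in crude_RNase. The difference for Fabp3, itself a myofibre gene, was smaller than the median of these markers in every comparison. Its crude_RNase level of 34.1 CPM was below that of all 12 markers. The lowest of them, Ldb3 at 149 CPM, differed less than Fabp3 (-0.76, -0.82 and -0.72). In IP_RNase Fabp3 had 17.0 CPM, beside 15.9 for Mylpf, 17.0 for Tnnc2 and more for the others. Its counts of 62 to 89 in captured libraries compare with 70 to 97 for the median gene. The smaller fold does not show that more Fabp3 RNA was retained. These markers are named after their values were seen. Of 13 tested adipocyte markers, 4 of which also stand in the pathway lists, 2, 1 and 1 were lower and 0 higher, with a sum of 346 to 377, 385 to 388, 366 to 401 and 366 to 415 CPM in the same group order. Those called were Gpd1, a glycerol phosphate dehydrogenase, in all 3 (-0.61, -0.44 and -0.48, edgeR adjusted p = 4.69e-07, 0.000142 and 3.71e-05) and Cfd, the protease adipsin, in IP_RNase (-0.62, adjusted p = 0.00407). Adipoq, which defines fat cells, was not called, averaged 15.1 ± 2.05 CPM in IP_RNase, 10.3 ± 1.22 CPM in IP_RNase_ProK, 13.01 ± 3.72 CPM in mitoplast_RNase and 10.1 ± 1.21 CPM in crude_RNase (SD, n = 3 each), and had 31 to 78 counts in a library, beside the olfactory receptor median of 30 to 49. Adipoq, Gpd1 and Cfd are named here after their values were seen. Of 13 tested endothelial markers 0 were called, with sums of 829 to 876, 841 to 869, 864 to 885 and 822 to 923 CPM. Of 10 fibroblast and matrix markers 8 were lower in each captured group, with medians of -1.17, -1.26 and -1.20. Thy1, named after its value was seen, was the 1 higher in IP_RNase_ProK and mitoplast_RNase. Their sum was 743 to 783, 730 to 745, 743 to 751 and 2212 to 2371 CPM in the same group order. Of 13 macrophage and leukocyte markers 4 were lower in each captured group and 0 higher, with medians of -0.05, 0.01 and 0.04 and sums of 554 to 565, 552 to 577, 551 to 570 and 589 to 628 CPM. Of 9 smooth muscle and pericyte markers 1 was lower in each captured group, and of 7 satellite cell markers 1, 1 and 0. Of 8 tested erythroid names 2 were lower in each, but these, Hba-a1 and Hba-a2, stand for the same gene row, which was counted under both names. In these lists 0 were higher. No marker of the 8 lists was at 0 in any library, and the part of these cell types in the results for Fabp3, Fabp4, Lpl or the perilipins was not tested.

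For each gene called at least once, the 3 genes with the most similar course over the 12 libraries were found among 16156 genes with a mean of at least 50 counts, by the root mean square difference of centred log2 CPM. Nearest to Fabp3 were Cox6b1, a cytochrome c oxidase subunit, at 0.142, the deaminase relative Apobec2 at 0.143 and the tubulin Tuba1b at 0.144. Nearest to Fabp4 were the phosphoglucomutase Pgm1 at 0.0978, the autophagy receptor Sqstm1 at 0.114 and the translation factor Eif4a2 at 0.119. The carriers lay 0.212 from each other. Neither was among the 3 nearest of the other, so this distance is the larger by the way those genes were picked. Lpl lay nearest to Antxr2, the M-band gene Myom2 and Gmfb (0.0865 to 0.0904), and Plin4 to Zbtb16, Slain2 and Fitm1 (0.1001 to 0.113). Plin2 lay nearest to Pura, the calcium channel gene Cacna1s and the adipocyte marker Cfd (0.0820 to 0.0939), and Cidec to Hivep3, Spata31d1 and B4galnt3 (0.0722 to 0.0778). Within the set, the most similar pairs were Lpl with Plin4 at 0.155 and Plin2 with Plin5 at 0.167, and the least similar was Fabp4 with Cidec at 0.635. These distances are a description of 12 libraries that share 1 homogenate.

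The gene named RGD1565355, listed in RefSeq as Cd36l1 and separate from Cd36, is not a member of the set. It had 19.6, 21.6 and 23.1 CPM in IP_RNase, 17.0, 19.3 and 15.8 CPM in IP_RNase_ProK, 19.9, 17.1 and 17.3 CPM in mitoplast_RNase, and 23.8, 33.2 and 32.8 CPM in crude_RNase. It was lower by -0.47 ± 0.138, -0.77 ± 0.139 and -0.71 ± 0.138 on the log2 scale (SE, edgeR adjusted p = 0.0263, 4.38e-05 and 0.000180). Reads could be shared between it and near-identical copies, since no source used here states how reads with several matches were treated, and its value cannot stand for Cd36.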

How the data were processed

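RNA had been treated with DNase I on the column and made into Zymo-Seq RiboFree libraries, per the labels' protocols. The submitters' processing notes name FastQC 0.74, cutadapt 4.6, STAR 2.7.11a, HTSeq and the genome build mRatBN7.2. No source used here gives the strand setting, the annotation release or the handling of multi-mapped reads. Whole-number raw counts per gene make up the deposited table. Libraries were grouped by title. For crude mitochondria the source label names immunoprecipitation, and the title and design text were followed. Gene positions and lengths were not used here.

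The genes and lists were chosen with earlier results of these data known. A model of all 12 libraries in 4 groups was fitted with edgeR 4.0.16 in R 4.3.3 (quasi-likelihood F test, with TMM factors of 1.12 to 1.23 in captured libraries and 0.525 to 0.679 in crude_RNase). filterByExpr with a minimum count of 10 left 26483 genes, and Benjamini-Hochberg adjustment ran over all of them, with a threshold of 0.05. The common biological coefficient of variation was 0.0644. The SE is the absolute log2 fold change divided by the square root of F. Ratios used a pseudocount of 0.5 and a two-sided exact permutation test in SciPy 1.17.1, adjusted over 3 ratios, since a planned ratio with Cd36 could not be formed. Beyond the 8 genes, the text names the 2 genes of each pathway list with the smallest p in IP_RNase against crude_RNase and the 3 most similar genes of each member called. On counts simulated for IP_RNase against crude_RNase over 26258 genes, the test recovered 69% of genes changed 1.5-fold and 100% of those changed 2-fold, with 10 false calls. The simulation used 1 common spread for all genes and groups and no difference in composition between preparations. Only genes with a mean of at least 50 counts were changed. Its recovery and false calls may therefore not carry over to the real libraries. Alternatives were DESeq2 1.42.0, 3 other scalings, no filter, fits of both groups alone, a replicate block, another pseudocount and leaving out each library. Every replicate pair differed beyond sampling noise (chi-square per degree of freedom 1.25 to 12.9). It was 4.69 to 12.9 in crude_RNase, 2.08 to 7.79 in IP_RNase, and 1.25 to 1.93 in IP_RNase_ProK and mitoplast_RNase. The model gives the 4 groups 1 spread per gene. Its p-values against crude_RNase may thus be too small for genes whose crude_RNase libraries spread more.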

Additional observations from a re-analysis of the deposited data

How the results depend on the processing

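Of 42 fold changes (7 genes in 6 comparisons), 42 kept direction and side of the threshold with no filter, with both groups alone and with the replicate block. The numbers do not pair the libraries: deviations of same-numbered libraries correlated at -0.10 to 0.07, and the same number was the best match in 5 of 18 cases. With the replicate block, 5, 5 and 4 of the 7 were called in IP_RNase, IP_RNase_ProK and mitoplast_RNase against crude_RNase and 0 in each comparison of captured groups, as without it. DESeq2 lost the Cidec call and gave no adjusted p for 12 fold changes among captured groups. Leaving out each library changed 6 of 504 calls, those of Cidec and Plin2 given above.

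With library totals, the log2 fold change turned positive against crude_RNase for Fabp3 (0.0054 in IP_RNase and 0.063 in IP_RNase_ProK) and, in IP_RNase, IP_RNase_ProK and mitoplast_RNase, for Lpl (0.63, 0.44 and 0.57), Plin2 (0.52, 0.90 and 0.75), Plin4 (0.40, 0.46 and 0.49) and Plin5 (0.91, 1.06 and 1.06). With mitochondrial messenger RNAs it turned positive in the same 3 comparisons for Fabp3 (2.76, 3.92 and 3.73), Fabp4 (2.72, 3.71 and 3.80), Lpl (3.42, 4.32 and 4.43), Plin2 (3.31, 4.77 and 4.61), Plin4 (3.21, 4.34 and 4.37) and Plin5 (3.71, 4.92 and 4.93). Against IP_RNase it turned positive in IP_RNase_ProK and mitoplast_RNase for Fabp3 (1.15 and 0.97), Fabp4 (0.99 and 1.08) and Lpl (0.89 and 1.01). With that scaling 7 of 7 were called in mitoplast_RNase against crude_RNase and in IP_RNase_ProK and mitoplast_RNase against IP_RNase. Both scalings raise the median of all genes, as given above.

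The captured minus crude_RNase difference in the Plin2 to Plin5 ratio stayed between -0.32 and -0.27 with each library left out. Its adjusted p was 0.109, 0.109 and 0.0545 without crude_RNase replicate 1, 2 and 3, where the exact p was the smallest that fewer libraries allow. Against each captured group alone it was -0.39 in IP_RNase, -0.16 in IP_RNase_ProK and -0.32 in mitoplast_RNase, where fewer libraries cannot give a p under 0.1. A ratio of Cd36 to Lpl was not run.

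Calls over all genes in IP_RNase, IP_RNase_ProK and mitoplast_RNase against crude_RNase numbered 1684, 1719 and 1467, against 25283, 25420 and 25415 with library totals and 26449, 26470 and 26465 with mitochondrial messenger RNAs. IP_RNase gave 4533 with olfactory receptor genes and IP_RNase_ProK 1135 with DESeq2. Against IP_RNase, IP_RNase_ProK gave 37 calls and mitoplast_RNase 41, with 24890 and 24728 under mitochondrial messenger RNAs and 143 and 115 in fits of both groups alone, and IP_RNase_ProK gave 23 with library totals. With 1 library left out these counts ran from 24 to 88 and from 25 to 78, the highest without crude_RNase replicate 1 and the lowest without IP_RNase replicate 1 or IP_RNase_ProK replicate 1 (24) and without mitoplast_RNase replicate 3 (25). mitoplast_RNase against IP_RNase_ProK gave 0, against 0 to 2 with 1 library left out, 1 with mitochondrial messenger RNAs and 11 in the fit of both groups alone. In simulation of IP_RNase against crude_RNase, differences of 1.5-fold were recovered for only part of the genes, so smaller differences in Plin5 or Cidec in that comparison may not be detectable.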
